A study of Mus musculus with 6 samples.

Results

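The genes described here encode the core of the spliceosome, and they are 53 gene symbols chosen by the particle or complex of the protein. Of these, 51 had a probe set with their symbol alone among 19937 genes measured, and Snrpf and Snrnp40 were not analysed here. RNA was taken from the polysomes of #483, a clone of mouse T-ALL cells (a leukaemia of immature T cells) of strain C57BL6, and fractions of a sucrose gradient were pooled. In 3 samples the cells had received 100 µM 4EGI-1 for 2 h, and 3 samples are titled untreated. 4EGI-1 keeps the translation factor eIF4G from joining eIF4E, the protein that holds the cap of an mRNA. The series' design text names DMSO, the solvent, for its control cells, so whether the untreated cells received solvent is not settled by the labels. All 6 samples come from the same clone, are called biological replicates in the design text, and were hybridised to 1 array each. The values are log2 signals, so a difference of 1 is a doubling, and they are relative within an array.

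The spliceosome removes introns from precursor RNA and is built from small nuclear ribonucleoproteins (snRNPs), each named after its U RNA, and from protein complexes that join and leave during splicing. Sm proteins form a ring on the U1, U2, U4 and U5 RNAs, and the related Lsm proteins form a ring on the U6 RNA. The U5 snRNP holds large proteins, among them the scaffold around the catalytic RNA and the helicase that activates the spliceosome, and the SF3B proteins of the U2 snRNP hold the branch point of the intron. Polysomes are mRNAs that carry several ribosomes, and mRNAs in translation are found there.

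After 4EGI-1 the polysomal mRNAs of the small ring proteins and of the large core proteins of the spliceosome moved in opposite directions. Of the 14 measured Sm and Lsm genes 12 fell, 0 rose and 2 did not pass the test, with a median log2 difference of -0.49. All 7 genes of large U5 and SF3B proteins rose, with a median log2 difference of 0.83. The 3 small SF3B subunits were not counted among these, and 2 of them fell and 1 did not pass. With them 7 of 10 genes rose and 2 fell, with a median log2 difference of 0.60. Over all 19937 genes the median log2 difference was -0.03, and 11.5% fell and 11.5% rose. These calls used limma across all genes with a Benjamini-Hochberg adjusted p under 0.05. Polysomal RNA of whole cultures was measured, so less of an mRNA per cell, a smaller share of it on polysomes and fewer cells of a kind cannot be told apart.

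**Figure D1:**
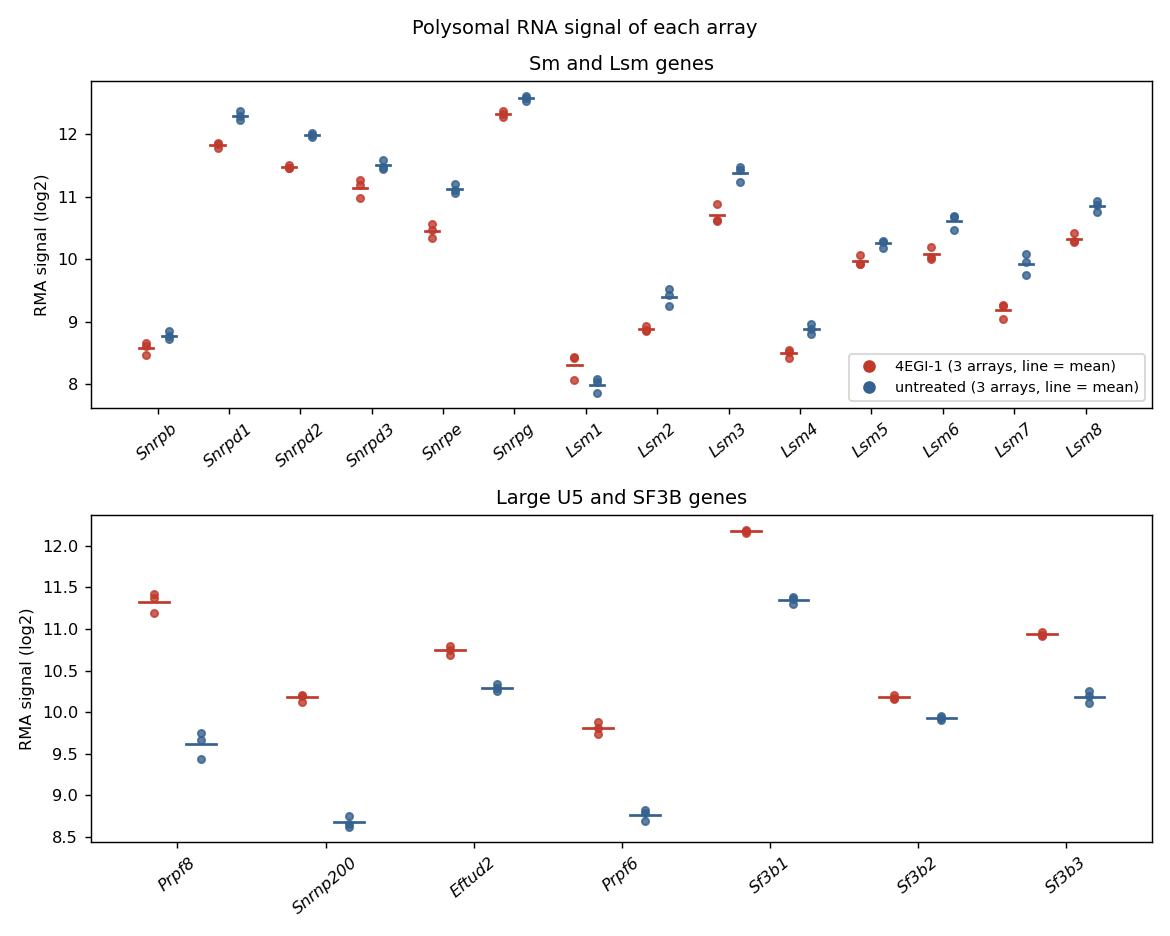
RMA signal (log2) of each array for 14 Sm and Lsm genes (upper panel) and 7 genes of large U5 and SF3B proteins (lower panel), with 4EGI-1 arrays left of untreated arrays and the mean of 3 arrays as a line. In every gene of the lower panel the 4EGI-1 arrays lie above the untreated arrays, and in 13 of the 14 genes of the upper panel they lie below; the exception is Lsm1.

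Over the 51 measured members 14 rose, 17 fell and 20 did not pass. The share of members called was 60.8%, against 22.9% of all genes tested. All genes were dimmer, with a median of mean log2 signals of 6.65, against 10.34 for members. Of 5802 other genes within the signal range of the members, 25.2% fell and 21.6% rose. Of the members 33.3% fell and 27.5% rose, so the shares lie nearer to those of genes of like signal. The log2 differences ranged from -0.74 for Lsm7 to 1.71 for Prpf8, and their median was -0.04. In 44 of the 51 members the 3 values of 4EGI-1 samples lay all above or all below those of untreated samples. This held for 37.9% of all genes, a share that was not matched for signal. The plot of member differences shows that both directions occurred among the tri-snRNP proteins and among the proteins around the Prp19 complex.

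**Figure D2:**
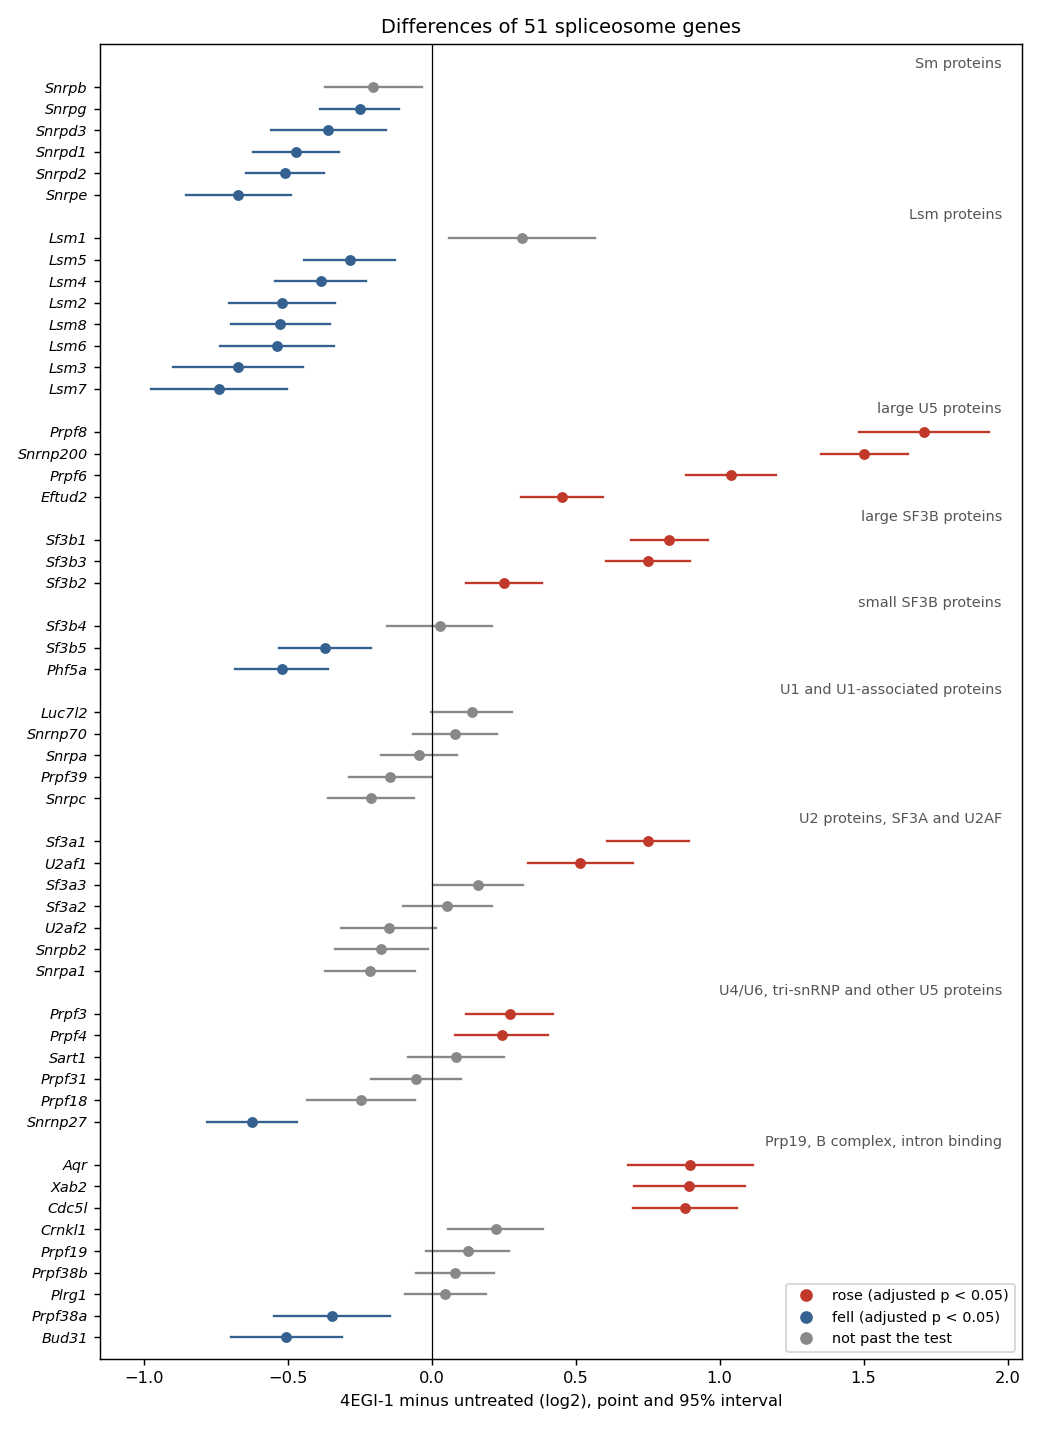
Log2 difference (4EGI-1 minus untreated) of the 51 measured spliceosome genes with its 95% interval from limma, grouped by the particle or complex of the protein; colours mark genes that rose, fell or did not pass at an adjusted p under 0.05. The genes of large U5 and large SF3B proteins all lie right of 0, and the Sm and Lsm genes except Lsm1 lie left of 0. Of the small SF3B genes Phf5a and Sf3b5 lie left of 0, and Sf3b4 lies near 0.

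Sm proteins are the ring proteins shared by most spliceosomal snRNPs, and 5 of the 6 measured Sm genes fell. Snrpe, which encodes SmE, had the largest decrease among them, with log2 signals of 10.47, 10.57 and 10.33 in 4EGI-1 samples, against 11.06, 11.11 and 11.21 in untreated samples. Every 4EGI-1 value of Snrpe lay below every untreated value, and the log2 difference was -0.67 ± 0.08 (SE, limma adjusted p = 0.000632). Snrpd2, which encodes SmD2, had 11.46, 11.52 and 11.46 in 4EGI-1 samples, against 11.99, 11.95 and 12.02 in untreated samples. The groups were again separate, and the log2 difference of Snrpd2 was -0.51 ± 0.06 (SE, limma adjusted p = 0.000554). Snrpd1, which encodes SmD1, had 11.85, 11.85 and 11.77 in 4EGI-1 samples, against 12.37, 12.29 and 12.22 in untreated samples, a log2 difference of -0.47 ± 0.07 (SE).

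Smaller decreases were seen in Snrpd3 and Snrpg, which encode SmD3 and SmG. Snrpd3 had log2 signals of 11.19, 10.98 and 11.27 in 4EGI-1 samples, against 11.45, 11.58 and 11.48 in untreated samples, a log2 difference of -0.36 ± 0.09 (SE). Snrpg had 12.32, 12.37 and 12.28 in 4EGI-1 samples, against 12.54, 12.61 and 12.57 in untreated samples, a log2 difference of -0.25 ± 0.06 (SE). Neither gene overlapped between the groups, and both calls were lost under some alternatives. The limma adjusted p of Snrpd3 was 0.0187 with all arrays and 0.0680 without untreated replicate 2, and 0.0532 when every probe set was tested. That of Snrpg was 0.0185 with all arrays and lay above the threshold in 4 of the 6 fits that left out 1 array, reaching 0.0667 without 4EGI-1 replicate 3, while its log2 difference stayed at -0.27 to -0.23. With quantile normalization Snrpg was at -0.19 (adjusted p = 0.0518). Snrpb, which encodes SmB, had 8.60, 8.46 and 8.65 in 4EGI-1 samples, against 8.85, 8.76 and 8.72 in untreated samples. It had a log2 difference of -0.20 ± 0.07 (SE, limma adjusted p = 0.0894) and did not pass, though its values did not overlap between the groups.

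Of the Lsm genes 7 of 8 fell. Lsm7 had the lowest difference of all members, with log2 signals of 9.04, 9.27 and 9.26 in 4EGI-1 samples, against 9.74, 9.96 and 10.08 in untreated samples. The groups were separate, and the signal with 4EGI-1 was 0.600 times that of untreated cells (log2 difference -0.74 ± 0.10, SE; limma adjusted p = 0.00137). Lsm3 had 10.61, 10.89 and 10.63 in 4EGI-1 samples, against 11.23, 11.43 and 11.48 in untreated samples, a log2 difference of -0.67 ± 0.10 (SE). Both genes encode proteins shared by the nuclear and the cytoplasmic ring. Lsm6 had 10.00, 10.20 and 10.03 in 4EGI-1 samples, against 10.47, 10.67 and 10.70 in untreated samples, a log2 difference of -0.54 ± 0.09 (SE). Lsm2 had 8.87, 8.92 and 8.85 in 4EGI-1 samples, against 9.25, 9.43 and 9.52 in untreated samples, a log2 difference of -0.52 ± 0.08 (SE). Lsm4 had 8.42, 8.55 and 8.51 in 4EGI-1 samples, against 8.80, 8.88 and 8.96 in untreated samples, a log2 difference of -0.39 ± 0.07 (SE). None of these overlapped between the groups. Lsm5 had 9.92, 10.06 and 9.92 in 4EGI-1 samples, against 10.18, 10.29 and 10.28 in untreated samples. This was the smallest decrease among the Lsm genes that fell, a log2 difference of -0.28 ± 0.07 (SE, limma adjusted p = 0.0189). Its call was lost in 4 of the 6 fits that left out 1 array, with an adjusted p of up to 0.0664 without untreated replicate 2.

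Lsm1 and Lsm8 stand for the 2 kinds of Lsm ring. Lsm8 belongs to the nuclear ring on U6 RNA, and it had log2 signals of 10.29, 10.42 and 10.27 in 4EGI-1 samples, against 10.75, 10.87 and 10.94 in untreated samples, a log2 difference of -0.53 ± 0.07 (SE) without overlap. Lsm1 takes its place in the cytoplasmic ring that promotes removal of the mRNA cap during decay. Lsm1 had 8.41, 8.43 and 8.07 in 4EGI-1 samples, against 7.85, 8.08 and 8.03 in untreated samples. The groups overlapped, because 4EGI-1 replicate 3 lay within the untreated range, and the log2 difference was 0.31 ± 0.11 (SE, limma adjusted p = 0.0811). Without 4EGI-1 replicate 3 the difference of Lsm1 was 0.43 and passed (adjusted p = 0.0146). In the fits that left out another array it did not pass, with a limma adjusted p of up to 0.236 and a difference down to 0.24.

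The large U5 genes held the greatest rises of all members. Prpf8 encodes the scaffold that holds the catalytic RNA and is among the most conserved spliceosome proteins. It had log2 signals of 11.37, 11.19 and 11.43 in 4EGI-1 samples, against 9.75, 9.67 and 9.44 in untreated samples. The lowest 4EGI-1 value was well above the highest untreated value, and the polysomal signal was 3.27 times as high with 4EGI-1 (log2 difference 1.71 ± 0.10, SE; limma adjusted p = 4.95e-05). Snrnp200 encodes the helicase that unwinds U4 from U6 RNA. It had 10.21, 10.12 and 10.20 in 4EGI-1 samples, against 8.61, 8.75 and 8.65 in untreated samples, 2.83 times as high with 4EGI-1 (limma adjusted p = 2.78e-05). Prpf6, a bridging protein of the tri-snRNP, had 9.80, 9.73 and 9.88 in 4EGI-1 samples, against 8.69, 8.82 and 8.79 in untreated samples, 2.06 times as high (limma adjusted p = 6.85e-05). Eftud2, the GTPase of the U5 snRNP, rose less. It had 10.69, 10.75 and 10.80 in 4EGI-1 samples, against 10.25, 10.29 and 10.34 in untreated samples, 1.37 times as high (limma adjusted p = 0.00132).

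The SF3B complex held both directions. Sf3b1 encodes the branch-point protein that is often mutated in blood cancers. It had log2 signals of 12.19, 12.15 and 12.18 in 4EGI-1 samples, against 11.30, 11.36 and 11.38 in untreated samples, a log2 difference of 0.83 ± 0.06 (SE, limma adjusted p = 8.26e-05). Sf3b3, the large propeller protein of the complex, had 10.93, 10.92 and 10.96 in 4EGI-1 samples, against 10.11, 10.19 and 10.25 in untreated samples, a log2 difference of 0.75 ± 0.06 (SE). Sf3b2 rose by 0.25 ± 0.06 on the log2 scale (SE), with 10.21, 10.15 and 10.18 in 4EGI-1 samples, against 9.92, 9.91 and 9.95 in untreated samples. All 3 were separate between the groups, and the adjusted p of Sf3b2 was 0.0147 with all arrays and 0.0511 without untreated replicate 2.

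The small SF3B subunits did not follow the large ones. Phf5a, a small zinc-finger protein that sits against SF3B1, had log2 signals of 10.57, 10.67 and 10.52 in 4EGI-1 samples, against 11.02, 11.16 and 11.15 in untreated samples, a log2 difference of -0.52 ± 0.07 (SE, limma adjusted p = 0.00123). Sf3b5, the smallest subunit, had 9.24, 9.33 and 9.32 in 4EGI-1 samples, against 9.58, 9.76 and 9.67 in untreated samples, a log2 difference of -0.37 ± 0.07 (SE, limma adjusted p = 0.00583). In both genes every 4EGI-1 value lay below every untreated value. Sf3b4 overlapped between the groups, with a log2 difference of 0.03 and a 95% interval of -0.15 to 0.21.

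The contrast between the 2 groups of genes was then followed array by array. Each gene was set against its own mean over the 6 arrays so that levels of different probe sets were not compared. This step makes the means of 4EGI-1 and untreated arrays equal and opposite, so only the spread among arrays is new here. The 14 Sm and Lsm genes deviated on average by -0.23, -0.16 and -0.24 in 4EGI-1 arrays, against 0.13, 0.23 and 0.25 in untreated arrays. The 7 genes of large U5 and SF3B proteins deviated by 0.47, 0.42 and 0.51 in 4EGI-1 arrays, against -0.49, -0.44 and -0.47 in untreated arrays. The mean log2 difference was 1.35 lower for Sm and Lsm genes than for the large genes (difference of means -1.35). With the small subunits Sf3b4, Sf3b5 and Phf5a counted among the SF3B proteins, this contrast was -0.98, 7 of the 10 genes rose and 2 fell.

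**Figure D3:**
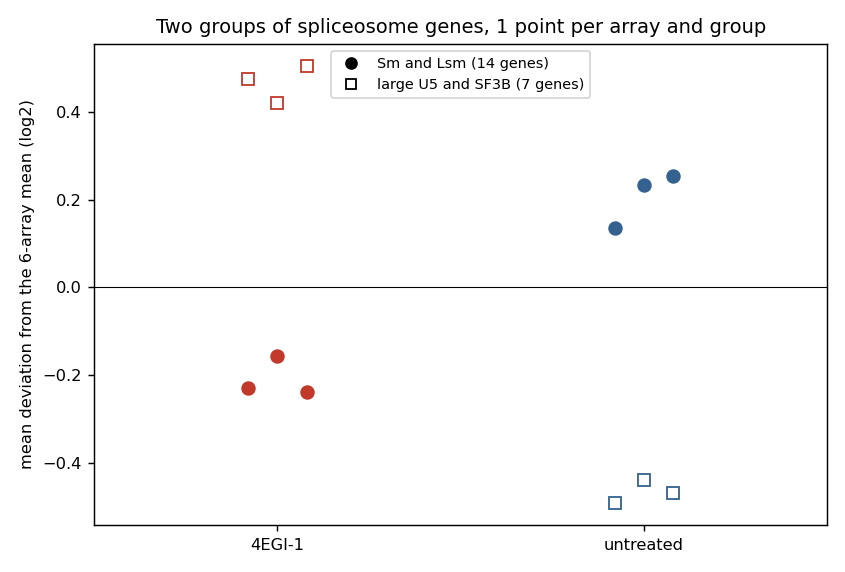
Mean deviation (log2) of 14 Sm and Lsm genes (filled circles) and of 7 large U5 and SF3B genes (open squares) from each gene's mean over 6 arrays, 1 point per array and group of genes. Circles lie below 0 in 4EGI-1 arrays and above 0 in untreated arrays, and squares lie the other way round. The means of 4EGI-1 and untreated arrays are equal and opposite by construction.

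The U1 proteins recognise the 5′ splice site, and none of the 5 measured genes passed. Their log2 differences were -0.21 for Snrpc (U1-C), -0.15 for Prpf39, -0.04 for Snrpa (U1-A), 0.08 for Snrnp70 (U1-70K) and 0.14 for Luc7l2. The 95% intervals of these 5 reached from -0.36 to 0.28. Snrpc was the nearest to the threshold, with an adjusted p of 0.0506.

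Among U2 proteins, SF3A and U2AF, 2 of 7 rose (28.6%) and 5 did not pass. Of other genes within the signal range of the members 21.6% rose. Sf3a1, which joins SF3A to the U2 snRNP, had log2 signals of 10.38, 10.30 and 10.28 in 4EGI-1 samples, against 9.52, 9.56 and 9.62 in untreated samples, a log2 difference of 0.75 ± 0.06 (SE, limma adjusted p = 0.000136). The other SF3A genes Sf3a2 and Sf3a3 had log2 differences of 0.05 and 0.16 and did not pass. U2af1, the small U2AF subunit that reads the 3′ splice site, had 11.81, 11.97 and 11.76 in 4EGI-1 samples, against 11.30, 11.27 and 11.43 in untreated samples, a log2 difference of 0.52 ± 0.08 (SE, limma adjusted p = 0.00216). This value comes from the brighter of 2 probe sets; the other gave -0.19, and with their mean U2af1 was at 0.17 (adjusted p = 0.0779). Its partner U2af2 had a log2 difference of -0.15, and the U2 proteins Snrpa1 and Snrpb2 had -0.21 and -0.17, none of which passed.

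Proteins of U4/U6 and the tri-snRNP gave 2 of 6 genes higher (33.3%), 1 lower (16.7%) and 3 not past the test. Of other genes within the signal range of the members 21.6% rose and 25.2% fell. Snrnp27, a small tri-snRNP protein, had log2 signals of 10.47, 10.47 and 10.35 in 4EGI-1 samples, against 11.01, 11.01 and 11.13 in untreated samples. Its groups were separate, with a log2 difference of -0.62 ± 0.07 (SE, limma adjusted p = 0.000460). The U4/U6 proteins Prpf3 and Prpf4 rose by 0.27 ± 0.07 and 0.24 ± 0.07 on the log2 scale (SE). Prpf3 had 10.44, 10.49 and 10.55 in 4EGI-1 samples, against 10.17, 10.19 and 10.30 in untreated samples. Prpf4 had 10.37, 10.34 and 10.44 in 4EGI-1 samples, against 10.25, 10.07 and 10.10 in untreated samples. Neither overlapped between the groups. Prpf3 lost its call in 3 of the 6 fits that left out 1 array (adjusted p up to 0.0673 without 4EGI-1 replicate 3), with log2 differences of 0.24 to 0.31. Prpf4 lost its call in 5 of them (up to 0.125 without untreated replicate 2), with 0.21 to 0.30, and when every probe set was tested (0.0783). Prpf31, Sart1 and the step 2 factor Prpf18 had log2 differences of -0.06, 0.09 and -0.24 and did not pass, though Prpf18 passed in 5 of 17 alternatives.

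The Prp19 complex and its companions remodel the spliceosome for catalysis, and of 9 genes 3 rose, 2 fell and 4 did not pass. These shares, 33.3% and 22.2%, stand beside 21.6% and 25.2% of other genes within the signal range of the members. Aqr, an intron-binding helicase, had log2 signals of 10.99, 10.74 and 11.00 in 4EGI-1 samples, against 9.91, 9.99 and 10.14 in untreated samples, 1.86 times as high. Xab2, a long scaffold protein of repeats, had 9.47, 9.39 and 9.61 in 4EGI-1 samples, against 8.48, 8.62 and 8.68 in untreated samples, also 1.86 times as high. Cdc5l, a core protein of the complex, had 11.40, 11.23 and 11.36 in 4EGI-1 samples, against 10.33, 10.54 and 10.48 in untreated samples, a log2 difference of 0.88 ± 0.08 (SE, limma adjusted p = 0.000179). All 3 were separate between the groups. The brightest probe set of Cdc5l, used here, stands among genes of another chromosome, and the one on its own chromosome gave 0.58.

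The small protein Bud31 fell, with log2 signals of 9.64, 9.64 and 9.52 in 4EGI-1 samples, against 10.26, 9.99 and 10.06 in untreated samples (log2 difference -0.50 ± 0.08, SE). Prpf38a, a protein of the precatalytic B complex, had 10.74, 10.87 and 10.84 in 4EGI-1 samples, against 11.34, 11.09 and 11.07 in untreated samples, and fell by 0.35 ± 0.09 (SE, limma adjusted p = 0.0223). Its adjusted p was 0.0711 without 4EGI-1 replicate 1 and 0.0603 when every probe set was tested. Its namesake Prpf38b had a log2 difference of 0.08, and Prpf19, Plrg1 and Crnkl1 had 0.12, 0.05 and 0.22; none of these 4 passed.

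Small spliceosome genes have processed copies elsewhere in the genome, and how far a probe set reads such copies was not tested. Of the 51 members 9 had several probe sets with their symbol alone. In probe set order, 99.7% of genes with 1 probe set stand among genes of their own chromosome. The brightest probe sets of Cdc5l, Lsm5, Sf3b4 and Snrpc did not. With the probe set that stands on the gene's own chromosome, the log2 difference was 0.58 for Cdc5l, -0.36 for Lsm5, 0.05 for Sf3b4 and -0.22 for Snrpc, and no call changed. Of the 5 probe sets of Snrpd2, 4 lay between -0.77 and -0.40 with adjusted p-values under 0.05 among all probe sets, and the dimmest was at -0.22. Only the brightest, at -0.51, stands among genes of the chromosome of Snrpd2, so the others may read copies elsewhere, which was not tested. Both probe sets of Lsm7 fell, by 0.74 and 0.84 on the log2 scale. Of the 3 probe sets of Lsm6, 2 were at -0.54 and -0.53 and 1 at 0.23, and the mean of the 3 gave -0.28 (adjusted p = 0.0971). The 2 with lower signal after 4EGI-1 stand among genes of the chromosome of Lsm6, and the one at 0.23 does not.

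The opposite course of the 2 groups was set beside other genes of like signal and like gene length. Of 5802 other genes within the signal range of the Sm and Lsm genes, 25.2% fell, with a median log2 difference of -0.04. Of 3231 other genes within the signal range of the large U5 and SF3B genes, 21.5% rose, with a median of -0.05. Gene length here is the genomic span, introns included, in the RefSeq table of assembly GRCm38.p6, which held a value for all 51 members. The Sm and Lsm genes span 2385 to 18658 bases and the large U5 and SF3B genes 21537 to 54343 bases, so the ranges do not overlap. Across the 51 members the log2 difference and the span had a Spearman rank correlation of 0.728, and across 19918 genes with a span it was 0.0981. Members share arrays and genes are not independent replicates, so these correlations are descriptions. Members were also chosen with earlier results of these data known, so that choice may shape the correlation among them. The correlation over all genes was not matched for signal. Among 7658 other genes with spans like the Sm and Lsm genes 13.2% fell, and among 4555 with spans like the large genes 15.6% rose. Neither set was matched for signal, and genes over the whole array were dimmer than the members.

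**Figure D4:**
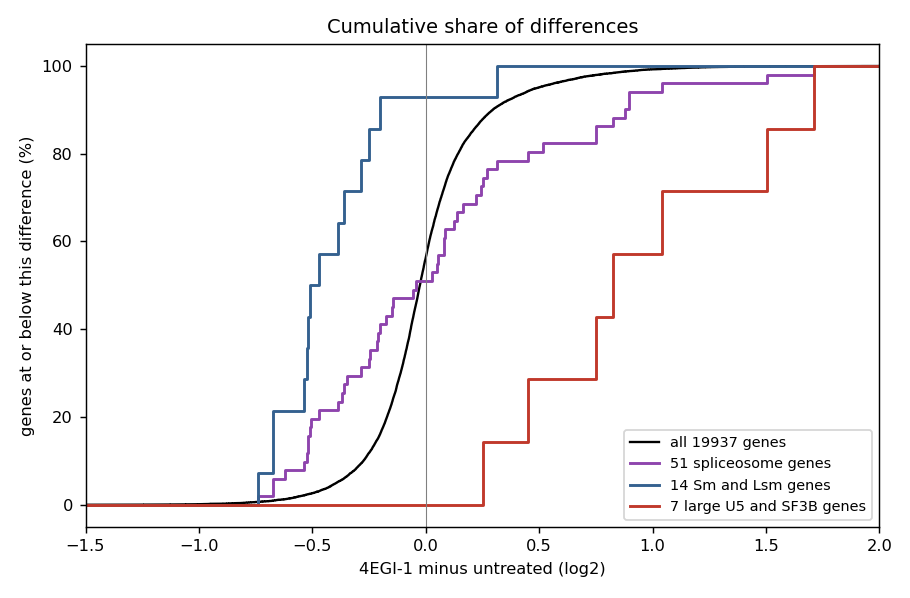
Cumulative share of genes (%) against the log2 difference (4EGI-1 minus untreated) for all 19937 genes, the 51 measured spliceosome genes, the 14 Sm and Lsm genes and the 7 large U5 and SF3B genes. The curve of all genes is steep around 0, that of Sm and Lsm genes lies to its left and that of the large genes to its right.

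Promoter letters were searched because the members moved in groups. The windows were the 250 bases before the start of the gene in RefSeq, build GRCm38.p6, which held 42 of the 53 members, 8 of them with 2 starts. The letters CCGGAAG, a core bound by ETS factors, were present on either strand in 15 of the 42 members (35.7%) and in 10.7% of 15613 measured genes with a window. Of the 13 members with a window that rose 7 held it, and of the 13 that fell 3 held it. The letters CCAAT were found in 42.9% of members and 38.8% of measured genes, the letters GGGCGG in 61.9% and 49.3%, and the E-box CACGTG in 7.14% and 8.11%. TATAAA was found in 4.76% of members and 12.5% of measured genes, the NRF1 motif in 2.38% and 1.33%, and AAGATGGC (bound by YY1) in 2.38% and 1.85%. A gene start with C as its first base in a run of at least 5 pyrimidines was found in 0 of 42 members and 2.75% of measured genes. No overlap between these motifs was removed, the motif shown was chosen after these shares were seen, and a match is a description of letters, not of a bound site.

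The 5 members of the contrasted groups whose window held CCGGAAG are shown with 60 bases around it, on the strand of the gene, with the motif or its reverse complement in capitals. Both Sm and Lsm genes shown fell, and the 3 large genes rose. These directions are those of their groups, where 12 of 14 Sm and Lsm genes fell and all 7 large genes rose. They are therefore no test of the motif. The positions are chr2:127208326-127208385 (plus strand) for Snrnp200, chr8:110846994-110847053 (minus) for Sf3b3, chr19:5295458-5295517 (minus) for Sf3b2, chr6:56704876-56704935 (minus) for Lsm5 and chr6:86371368-86371427 (plus) for Snrpg.
Snrnp200: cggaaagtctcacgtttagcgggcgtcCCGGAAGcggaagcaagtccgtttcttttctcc
Sf3b3: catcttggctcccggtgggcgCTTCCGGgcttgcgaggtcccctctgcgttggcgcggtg
Sf3b2: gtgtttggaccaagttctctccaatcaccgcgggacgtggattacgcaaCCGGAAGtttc
Lsm5: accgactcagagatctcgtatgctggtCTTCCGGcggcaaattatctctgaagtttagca
Snrpg: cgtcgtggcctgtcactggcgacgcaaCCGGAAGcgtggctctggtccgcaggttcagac
The motif began 33 bases before the start in Snrnp200 and 11 bases before it in Sf3b2, and 229, 209 and 145 bases before it in Sf3b3, Lsm5 and Snrpg.

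Other splicing genes, 129 in 9 lists, did not move together. Of these 117 were measured: 21 were higher at the threshold, 24 were lower and 72 fell short of it, with a median log2 difference of 0.00. The number that fell was 15 without untreated replicate 3 and 14 without 4EGI-1 replicate 3. With all arrays 20.5% fell and 17.9% rose, against 11.5% and 11.5% of all genes. Of other genes within the signal range of the members 25.2% fell and 21.6% rose. Counts of the single lists below are descriptions with no test of the list. Among Sm assembly genes 2 of 13 rose and 2 fell (15.4% each). Gemin5, which recognises snRNAs for the SMN complex, rose by 0.52 ± 0.08 on the log2 scale and Ddx20, its helicase, by 0.41 ± 0.07 (SE). Gemin6, a small Sm-like subunit, fell by 0.38 ± 0.07, and the methylosome gene Wdr77 by 0.37 ± 0.09 (adjusted p = 0.0163, and 0.0507 without 4EGI-1 replicate 3).

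Of 6 other genes of the Lsm fold 3 fell (50%) and 1 rose (16.7%). Shares over all genes were 11.5% in each direction, and among other genes within the signal range of the members 25.2% fell and 21.6% rose. Lsm14a, a translational repressor, had a log2 difference of -0.25 ± 0.06, the acetyltransferase subunit gene Naa38 -0.36 ± 0.08, and Lsm11 of the U7 snRNP 0.24 ± 0.06 (SE). Each of these calls was lost in at least 2 fits without 1 array, with adjusted p-values of up to 0.0525, 0.0609 and 0.0962, all without untreated replicate 3. Minor spliceosome genes gave 1 of 7 higher (14.3%), Snrnp48 by 0.31 ± 0.07, and 1 lower (14.3%), Snrnp25, which fell by 0.55 ± 0.07 (SE). Of 10 spliceosomal helicase genes 2 rose (20%) and 1 fell (10%). Ddx42 and Dhx38 rose by 0.39 ± 0.07 and 0.31 ± 0.06, and Ddx23 fell by 0.26 ± 0.06 (adjusted p = 0.0195, and 0.0623 without untreated replicate 1).

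Of 33 further factors of the Prp19 complex, the second step and the tri-snRNP 9 rose (27.3%) and 7 fell (21.2%). These shares lie near those of other genes within the signal range of the members, 21.6% and 25.2%. Over all genes 11.5% rose and 11.5% fell. Cwc22, which brings the exon junction complex to the spliceosome, rose by 0.59 ± 0.07 and Cherp by 0.59 ± 0.07 (SE). The small cyclophilin genes Ppih and Ppil1 fell by 0.57 ± 0.06 and 0.34 ± 0.07. Of 8 exon junction complex genes 2 rose and 2 fell (25% each). Acin1 was at 0.31 ± 0.07 and Pnn at 0.22 ± 0.06, against -0.30 ± 0.06 for Rbm8a and -0.32 ± 0.07 for Alyref. Only Rbm8a of these 4 kept its call in all 6 fits without 1 array; the adjusted p reached 0.0572 for Acin1 and 0.0884 for Pnn without untreated replicate 2, and 0.0604 for Alyref without untreated replicate 1.

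SR proteins promote exon recognition, and of 14 genes 5 fell (35.7%) and 2 rose (14.3%). Beside these stand 11.5% in each direction over all genes. Among other genes within the signal range of the members 25.2% fell and 21.6% rose. Srsf6 and Srsf1 fell by 0.66 ± 0.07 and 0.57 ± 0.07 on the log2 scale (SE). The SR-related genes Srrm2 and Srrm1 rose by 0.62 ± 0.07 and 0.43 ± 0.06 (SE). Of the kinases of SR proteins, 6 measured, 2 rose (33.3%) and 1 fell (16.7%). Clk4 and Clk1 rose by 0.54 ± 0.06 and 0.66 ± 0.09. Prpf4b was at -0.21 ± 0.06 (adjusted p = 0.0368) and lost its call in all 6 fits without 1 array, with an adjusted p of up to 0.111 without untreated replicate 2. Of 21 hnRNP genes 3 fell (14.3%), 0 rose and 18 did not pass. Pcbp2 and Hnrnpll fell by 0.42 ± 0.06 and 0.41 ± 0.06.

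The array medians were 6.38 to 6.43 over 34760 probe sets. Precision is limited by having 3 arrays a group. The 11 measured T-cell markers had a mean log2 signal of 10.07 to 10.13 in 4EGI-1 arrays and 10.40 to 10.43 in untreated arrays, and 6 of them fell. The marker lists of B cells, myeloid, erythroid, and stromal and endothelial cells averaged 5.62 to 6.84 in 4EGI-1 arrays and 5.73 to 6.92 in untreated arrays, and of their 22 measured genes 1, the myeloid gene Adgre1, passed (up by 0.64). Their part in the results was not tested.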

How the data were processed

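Polysomal RNA of 6 mouse T-ALL samples, 3 treated with 4EGI-1 and 3 untreated, was turned into biotin-labelled cDNA for the arrays, per the labels' protocols. The deposited values are log2 signals made by the authors with RMA, per the submitters' processing notes; its software version is not given in the sources used here. Of 34760 probe sets, 21640 have 1 gene symbol in the platform annotation, 1321 have several and 11799 are not listed and stay unnamed. Symbols were updated by Entrez identifier (21553 probe sets) through the RefSeq table of GRCm38.p6, and the brightest probe set per symbol was kept, giving 19937 genes. Differences (4EGI-1 minus untreated) came from the limma 3.58.1 functions lmFit and eBayes (R 4.3.3), with no filter, and p-values were adjusted by Benjamini-Hochberg over all genes with a threshold of 0.05. Tests were two-sided, SE is the moderated standard error, and the degrees of freedom were 8.15 with those of the prior. The code was tested on simulated data. Members and lists were chosen with earlier results of these data known. All members are named; of each other list, up to 2 genes per direction with the smallest adjusted p. A planned description by protein length was replaced by gene span. Protein lengths were not used here, so the words small and large for proteins rest on no value given here. Gene span includes introns and is not a measure of protein size. Alternatives were a replicate block, filters on low signal, every probe set tested, the mean of probe sets, quantile normalization, median centring, limma's array weights, a prior with trend and robust setting, a stricter threshold of 0.01 and omission of single arrays. The choice of probe sets by chromosome, the comparisons by signal and span and the promoter search were added after seeing the data. The closest arrays within a group differed by a median absolute log2 value of 0.0927, so none was counted as a repeat.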

Additional observations from a re-analysis of the deposited data

How the results depend on the processing

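Over 867 values of the 51 members under 17 alternatives, 36 lost their call, 26 gained one (9 members) and 805 left it unchanged. None that passed in either fit turned direction; Sf3b4, which never passed, turned to -0.04 without untreated replicate 2 and to -0.01 without 4EGI-1 replicate 1. Of the 31 members that passed, 22 kept their call in all 17 alternatives. Members that rose numbered 11 to 18 and members that fell 13 to 22, over all alternatives. At an adjusted p under 0.01, 1488 genes rose and 1248 fell over all genes, against 2286 and 2287 at 0.05, and 12 of the other splicing genes fell, against 24. That last count was 14 to 18 without 1 array. Of Sm and Lsm genes 1, Lsm1, rose when dimmer genes (mean below the median probe set) were left out and with the trended robust prior, and 0 to 1 rose without 1 array. The median log2 difference of all members, -0.04, was -0.0561 (without 4EGI-1 replicate 3) to -0.0091 (without untreated replicate 1) without 1 array. With the small SF3B subunits counted among the large U5 and SF3B genes, 2 of 10 genes fell, the median was 0.60 and the contrast with Sm and Lsm genes -0.98. Deviations of samples with the same replicate number had correlations of 0.0609, 0.107 and -0.0214. Those of samples with different numbers had correlations of -0.109 to 0.0553. With 3 arrays a group these values cannot settle whether samples of the same number were paired. With the replicate block 13 members rose and 17 fell, and over all genes 2097 rose and 1974 fell. It ended the calls of Prpf4 (adjusted p = 0.0625), Prpf38a (0.0526), Lsm11 (0.0573), Pnn (0.0521) and Prpf4b (0.0610), and Prpf18 passed with it (0.0418). Fits without 1 array have fewer samples, and over all genes 1857 to 2082 rose and 1663 to 1836 fell in them. With 3 arrays a group, differences near the median SE of 0.0781 were not detectable. Larger ones, such as -0.24 in Prpf18 and 0.31 in Lsm1, did not pass either, so members without a call are not shown to be unchanged.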
